A study of Mus musculus with 58 samples.

Results

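The expression of 10 genes of the mammary gland was followed through 58 bulk Smart-seq3 libraries of sorted mouse adipose stem cells (ASC). The genes were the luminal keratins Krt8 and Krt18, the basal keratins Krt14 and Krt5, the epithelial surface proteins Epcam and Cdh1, and the milk proteins Csn2, Csn3, Wap and Lalba. They were chosen by name, as the rows of the raw count matrix whose Ensembl identifiers carry these symbols, and all 10 were found among the 56953 genes of the matrix. The cells came from inguinal white adipose tissue (iWAT), a subcutaneous depot in which the mammary gland of the mouse is embedded, of C57BL6/J animals. They were gated as negative for CD45 and CD31 and positive for CD34, then divided by DPP4 into ASC1 (DPP4-) and ASC2 (DPP4+), so both populations carry the same gate apart from DPP4. Surgery, castration in males or ovariectomy in females, was performed at 4 weeks of age, and all animals were terminated at 10 weeks after 4 h of fasting. There were 7 control male ASC1, 8 control male ASC2, 8 control female ASC1, 8 control female ASC2, 8 castrated male ASC1, 8 castrated male ASC2, 3 ovariectomized female ASC1 and 8 ovariectomized female ASC2 libraries. The labels call the control animals control without saying whether they had a sham operation, and they do not state that libraries sharing a plate row letter came from 1 mouse. Libraries are named here by that letter, which runs from A to H in control groups and from I to P in operated groups. Surgery and plate rows therefore cannot be told apart in any comparison of operated with control animals.

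The mammary duct is an epithelium of 2 layers. Luminal cells face the lumen and are built on the keratin pair Krt8 and Krt18, whose proteins assemble with each other into filaments, whereas basal (myoepithelial) cells carry the pair Krt5 and Krt14 together with contractile proteins. Both layers hold cadherin 1, the protein of Cdh1, at their junctions, and Epcam is a surface protein of most simple epithelia, strongest in luminal cells. The caseins (Csn2, Csn3), whey acidic protein (Wap) and alpha-lactalbumin (Lalba, a subunit of lactose synthase) are secreted by luminal alveolar cells under prolactin in pregnancy and lactation. Krt8 and Krt18 are shared with other simple epithelia, among them the mesothelium that covers visceral organs, and Krt14 and Krt5 with the epidermis.

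The upstream DNA of the 4 keratin genes is shown because their transcripts carried nearly all member reads, and that of Csn2 because it is a major casein gene and had no read at all. RefSeq windows on GRCm38.p6 were found for 8 members, all but Csn3 and Cdh1. Each sequence is the 250 bases before the annotated start, read 5′ to 3′ on the strand of the gene, with motif matches in capitals, and a match on the opposite strand appears as its reverse complement. The motifs searched on both strands were the TATA box TATAAA, the GC box GGGCGG, the E-box CAGGTG and the palindrome TTCNNNGAA, a form bound by STAT factors. A match is a description of the letters and not a shown binding site. The windows lie at chr15:102004343-102004592 (minus strand), chr15:102027966-102028215 (plus), chr11:100206031-100206280 (minus), chr15:101712906-101713155 (minus) and chr5:87699426-87699675 (minus).
Krt8: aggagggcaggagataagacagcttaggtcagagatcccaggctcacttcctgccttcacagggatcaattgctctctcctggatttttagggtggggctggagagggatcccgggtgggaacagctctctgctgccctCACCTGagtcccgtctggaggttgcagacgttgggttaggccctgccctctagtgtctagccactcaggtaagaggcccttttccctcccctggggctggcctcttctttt
Krt18: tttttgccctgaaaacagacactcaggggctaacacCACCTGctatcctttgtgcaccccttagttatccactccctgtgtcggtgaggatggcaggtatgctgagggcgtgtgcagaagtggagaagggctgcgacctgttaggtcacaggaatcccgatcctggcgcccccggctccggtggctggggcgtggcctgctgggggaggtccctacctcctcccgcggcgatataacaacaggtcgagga
Krt14: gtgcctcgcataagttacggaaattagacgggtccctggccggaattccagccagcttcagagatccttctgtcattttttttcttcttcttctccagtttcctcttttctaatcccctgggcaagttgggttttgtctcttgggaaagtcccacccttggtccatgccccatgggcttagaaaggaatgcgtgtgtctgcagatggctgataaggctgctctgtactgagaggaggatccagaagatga
Krt5: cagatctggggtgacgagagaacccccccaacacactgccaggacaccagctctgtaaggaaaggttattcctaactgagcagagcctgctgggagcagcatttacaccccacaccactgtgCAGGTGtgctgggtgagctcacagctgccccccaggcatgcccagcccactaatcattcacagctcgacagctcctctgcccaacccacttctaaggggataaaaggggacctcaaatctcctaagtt
Csn2: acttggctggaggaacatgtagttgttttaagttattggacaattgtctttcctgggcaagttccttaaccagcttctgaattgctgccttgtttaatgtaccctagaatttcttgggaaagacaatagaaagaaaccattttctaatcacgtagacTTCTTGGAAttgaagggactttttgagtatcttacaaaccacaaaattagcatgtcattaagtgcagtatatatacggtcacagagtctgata
The Krt8 and Krt18 windows are 23.4 kb apart on chromosome 15 and point away from each other. Krt8, Krt18 and Krt5 each held 1 CAGGTG match, a motif present in 17.1% of 27025 windows of this length. The single TTCNNNGAA match among the 8 members lay in Csn2, 93 to 85 bases before the start, and 7.18% of all windows held that motif. TATAAA (13% of windows) was in none of the 8, and GGGCGG (32.9%) only in Epcam. GC content was 58% for Krt8, 60.4% for Krt18 and 56.0% for Krt5, against 49.6% for Krt14, 36.8% for Csn2 and a median of 52.0% over all windows.

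Totals ran from 106566 to 1421547 counts, with a median of 682423.5. Dpp4 itself separated the populations, with group medians of 7.61 to 33.7 CPM in ASC1 and 87.2 to 239 CPM in ASC2. Transcripts of the sex chromosomes went against the sex label in 27 of 58 libraries (Xist at 20 CPM or more in a library labelled male, or 4 summed Y-linked genes at 20 CPM or more in one labelled female). These were all 8 libraries labelled castrated male ASC1, 5 of 8 control female ASC1 (all but A, E and F), 6 of 8 control female ASC2 (all but C and D), 4 of 7 control male ASC1 (E to H) and 4 of 8 control male ASC2 (E to H). Sex and surgery are therefore given as on the label. The calls of members are given again without these libraries where libraries remain, as values or as counts. Calls of other genes were not repeated without them. The 3 ovariectomized female ASC1 libraries also stood apart, with Cd34 at 1370 to 1770 CPM against 126 to 718 CPM in ovariectomized female ASC2, and with 34.8% of genes changed against control female ASC1. Against control female ASC1 the median log2 difference over all tested genes was -0.34, and against ovariectomized female ASC2 it was -0.365, so the values of this group are to be read against that shift. Their summed fibroblast markers (Pdgfra, Col1a1, Dcn and Lum) were 42900 to 44900 CPM against 3010 to 13900 CPM in all other libraries. Over all libraries the summed markers were 0 to 123 CPM for endothelium, 36.6 to 648 CPM for leukocytes, 0 to 224 CPM for mural cells (142 to 224 CPM in ovariectomized female ASC1 and at most 75.7 CPM elsewhere) and 0 to 30.4 CPM for adipocytes.

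Luminal keratins were the most widespread of these transcripts, basal keratins were present in fewer libraries, and milk transcripts were almost absent. Krt8 had 1726 reads in all, with at least 1 read in 47 of 58 libraries, and Krt18 had 1393 reads, also in 47 libraries. Krt14 had 468 reads in 26 libraries and Krt5 158 reads in 13. Cdh1 had 73 reads in 19 libraries and Epcam 47 reads in 19. Of the milk genes, Csn3 had 51 reads in 22 libraries, Lalba had 1 read in 1 castrated male ASC2 library, and Csn2 and Wap had no read in any library. The counting floor of 3 reads over a group corresponded to 0.457 to 0.629 CPM in the groups of 7 or 8 libraries and to 2.38 CPM in ovariectomized female ASC1, the group where a low level is hardest to see. CPM is counts scaled to a common library size after TMM normalization, a correction for differences in composition between libraries. In bulk RNA, fewer cells of a type and less RNA per cell cannot be told apart. The filter on low counts left 5 of 10 members for the test (Krt8, Krt18, Cdh1, Krt14 and Krt5) and removed Epcam, Csn3, Lalba, Csn2 and Wap.

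**Figure D1:**
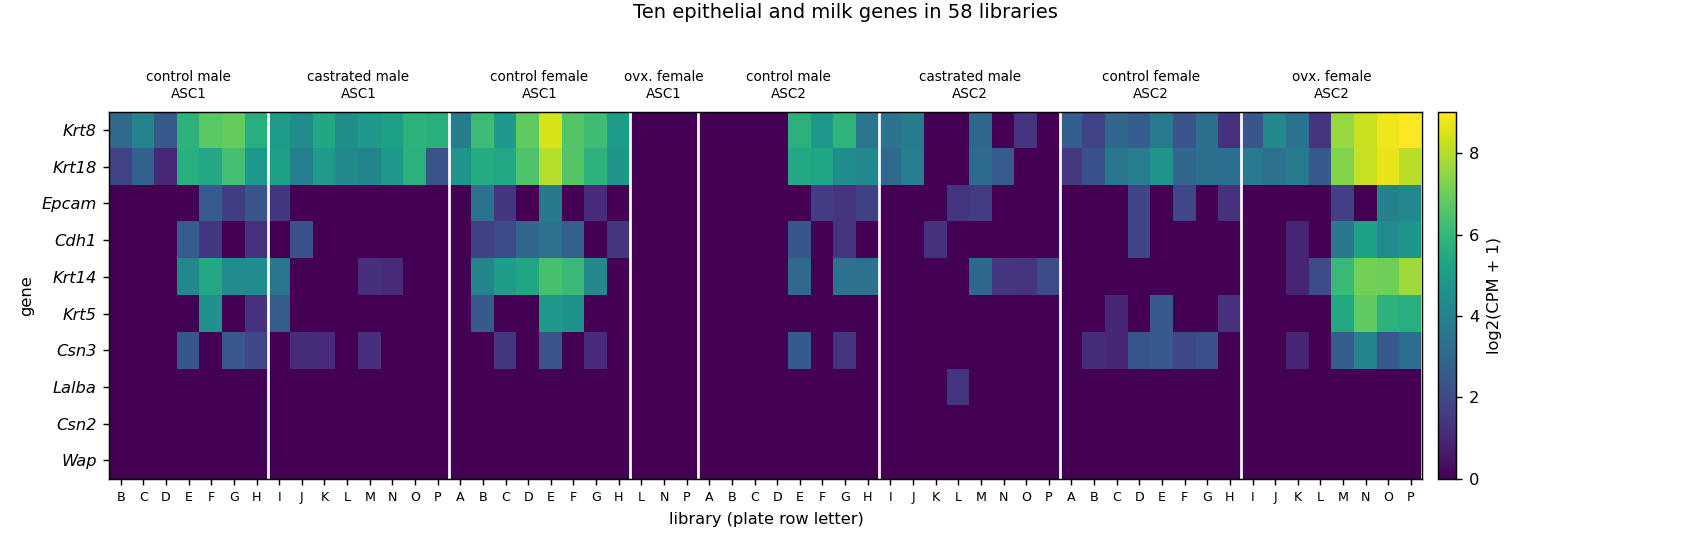
Level of the 10 genes (rows) in each of the 58 libraries (columns, plate row letters within group), coloured by log2(CPM + 1). Krt8 and Krt18 appear in 47 libraries each, Krt14 in 26 and Krt5 in 13, and the rows of Csn2 and Wap are empty.

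Basal keratin reads were found almost always together with luminal ones. A luminal keratin was read in 48 libraries, a basal keratin in 29 and a milk transcript in 23. Of the 29 libraries with a basal keratin, 28 also had a luminal keratin, and the exception was castrated male ASC2 library P with 1 Krt14 read. By contrast, 20 libraries had a luminal keratin without a basal one. No read of any member was found in 7 libraries, namely control male ASC2 A to D and the 3 ovariectomized female ASC1 libraries. Luminal, basal and milk reads occurred together in 16 libraries. Over the 58 libraries Krt8 and Krt18 gave a Pearson r of 0.94 (Spearman rho 0.93) on log2(CPM + 1), and Krt14 and Krt5 gave 0.75 (0.56). Krt8 with Krt14 gave 0.73 (0.67), Cdh1 with Krt14 0.79 (0.65), and Csn3 with Krt8 0.56 (0.50). These correlations are descriptions over libraries that share groups and plates, and summed Krt8 and Krt18 gave r = -0.12 with the library total.

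In the libraries labelled control male, the luminal keratins divided each population by library. Krt8 in ASC1 was 7.61, 15.6 and 4.95 CPM in B, C and D, and 56.4, 105, 117 and 49.5 CPM in E, F, G and H. Krt18 ran the same way, at 2.54, 6.23 and 0.99 CPM in B to D and at 49.5, 43.2, 79.6 and 26.9 CPM in E to H. Libraries E to H, the higher ones for both genes, are those with Xist above 20 CPM. In ASC2, Krt8 and Krt18 had no read in A to D. Krt8 was 54.8, 27.4, 57.9 and 10.6 CPM in E to H, and Krt18 ran from 17.7 CPM in H to 42.2 CPM in E. Here too the libraries with reads are those with Xist at 49.9 to 73.6 CPM, whereas Xist was 0 in A to D. Y-linked transcripts summed to 12.5 to 33.7 CPM in E to H and to 111 to 128 CPM in A to D, so E to H carried transcripts of both kinds. Krt14 had no read in B to D of ASC1 or in A to D and F of ASC2, and stood at 17.4 to 43.2 CPM in ASC1 E to H. Krt5 was read in ASC1 F (22.5 CPM, 13 reads) and H (1 read) alone among these libraries. The part of the mismatched labels in these values was not tested.

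In control female ASC1 every library had both luminal keratins. Krt8 ran from 13.1 CPM in A (2 reads) to 356 CPM in E (334 reads), with a median of 73.3 CPM, and Krt18 from 26.1 to 261 CPM with a median of 50.5 CPM. Library E held 708 of the 1322 member reads of this group. In B, C, D, G and H, with Xist at 2.41 to 7.2 CPM and Y-linked sums of 61.4 to 79.4 CPM, Krt8 was 72.2, 28.2, 112, 74.4 and 31 CPM. In E and F, with Xist at 57.5 and 69.8 CPM, it was 356 and 97.7 CPM. In A, with Xist at 13.1 CPM and a Y-linked sum of 6.53 CPM, Krt8 was 13.1 CPM. Of the libraries with low Xist, only D thus lay above F, and all the others lay below both E and F. The low and high Xist libraries overlapped for Krt8 here, whereas in control males they did not. Krt14 was read in 6 of 8 libraries, at 16.8, 31.5, 38.4, 84.2, 67.8 and 18.0 CPM in B to G, and was absent from A and H. Krt5 was read in B (2 reads), E (26) and F (12). Control female ASC2 was low throughout, with Krt8 from 1.46 to 12.6 CPM (median 5.47) and Krt18 from 1.84 to 25.2 CPM (median 8.94), read in 8 of 8 libraries each. Krt14 had no read in any of these 8 libraries, and Krt5 had 5 reads in 3 of them.

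The libraries labelled castrated male ASC1 had the most even luminal keratin level. Krt8 was 20.3 to 56.3 CPM (median 32.2) and Krt18 3.97 to 53.0 CPM (median 22.8), with both genes read in 8 of 8 libraries. Krt14 was read in I (6 reads), M (1) and N (1), and Krt5 in I alone (3 reads). Castrated male ASC2 was close to background, with Krt8 at 9.82 CPM in I, 12.7 CPM in J, 6.99 CPM in M and 1.59 CPM in O and no read in the other 4 libraries. Krt14 reached 6.99 CPM (7 reads) in M and had 1 read each in N, O and P.

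Ovariectomized female ASC2 held the highest single level of each of the 4 keratins in the series, and its libraries differed widely. Krt8 was 4.17, 18.1, 9.22 and 1.64 CPM in I, J, K and L, and 199, 318, 441 and 521 CPM in M, N, O and P. Krt18 was 12.5, 9.55, 12 and 4.91 CPM in I to L and 159, 306, 426 and 273 CPM in M to P. Both luminal keratins were thus at least 159 CPM in each of M to P and at most 18.1 CPM in each of I to L. Krt14 was 0, 0, 0.922 and 3.28 CPM in I to L and 68.3, 138, 131 and 213 CPM in M to P. Krt5 had no read in I to L and stood at 43.3, 111, 56.6 and 51.2 CPM in M to P. Cdh1 followed, with 1 read over I to L and 10, 9, 8 and 3 reads in M to P. Of these libraries N, O and P were shallower (248114, 411566 and 106566 counts) than each of I to L (595579 to 1118901 counts), while M had 875300 counts. The part of depth in these values was not tested. In ovariectomized female ASC1 none of the 10 genes had a read in L, N or P.

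**Figure D2:**
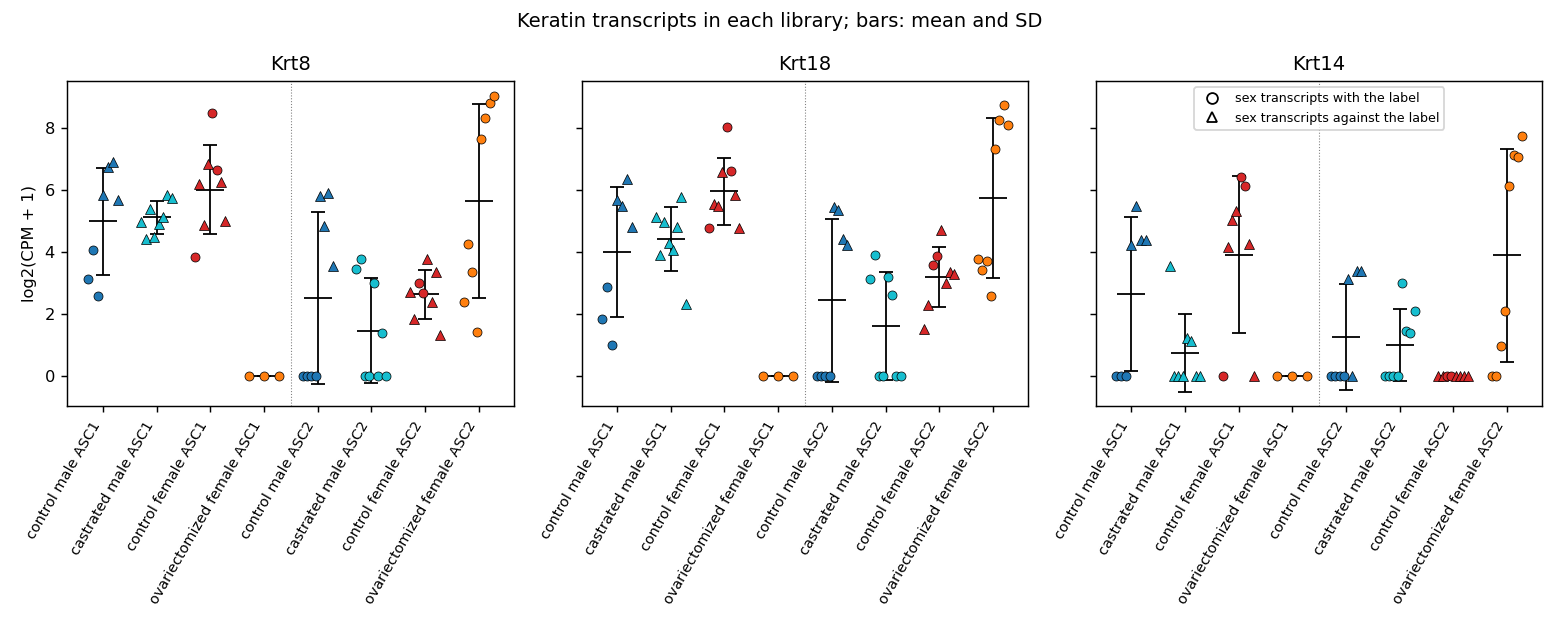
Krt8, Krt18 and Krt14 as log2(CPM + 1) in each library by group, with the mean and SD as bars, and triangles for libraries whose sex-chromosome transcripts go against the label. Control male ASC2 and ovariectomized female ASC2 each form a low and a high set of libraries, and the 3 ovariectomized female ASC1 libraries lie at 0.

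The first comparison sets ovariectomized against control females. In ASC2 Krt8, Krt18, Krt14 and Cdh1 were higher in ovariectomized than in control females, where 2.09% of the 12464 tested genes were called in either direction (edgeR quasi-likelihood test, Benjamini-Hochberg adjusted p below 0.05). Krt5 was called too, but it passed the filter on low counts only through this group, which holds 4 of its 7 libraries with 5 or more reads, so its calls are given as values and support nothing. Krt8 averaged 189 ± 214 CPM (SD, n = 8) against 5.96 ± 3.60 CPM (n = 8), a log2 difference of 4.84 (SE 0.875, adjusted p = 0.00055 by edgeR). Krt18 averaged 150 ± 167 CPM against 10 ± 7.18 CPM, a log2 difference of 3.78 (SE 0.769, adjusted p = 0.00212). Cdh1 was higher by 4.11 (SE 1.03, adjusted p = 0.017) and Krt5 by 4.81 (SE 1.24, adjusted p = 0.0256) on the log2 scale. Krt14 averaged 69.3 CPM against no read in control females, which is at least 131-fold higher when the control group is set at its floor of 0.528 CPM (adjusted p = 0.000751). The groups overlapped for every gene, because libraries I to L lay within or near the control range, and exact two-sided permutation tests on mean log2(CPM + 1) gave p = 0.0264 for Krt8, 0.0298 for Krt18 and 0.00699 for Krt14 (unadjusted, among 71 such tests). The same test gave 0.0443 for Cdh1 and 0.0769 for Krt5. The sort markers were lower in these ovariectomized libraries, with log2 differences of -1.50 for Cd34 and -1.42 for Dpp4 (edgeR adjusted p = 0.00295 and 0.0128), as were the fibroblast genes Dcn at -0.98 and Lum at -0.865 (adjusted p = 0.00505 and 0.0291), while Pdgfra and Col1a1 were not called. Their part in the keratin result was not tested. Without the 6 control female ASC2 libraries that went against their label the log2 differences stayed positive (4.81 for Krt8, 3.57 for Krt18), but only 2 control libraries were left and none of the 5 was called (adjusted p of 0.688 to 0.978). In that fit only 2 of 11851 genes were called for this comparison, against 261 of 12464 with all libraries. The calls of genes other than the members, here and below, are therefore given for the fit of all libraries only. Without library N, 3 of 5 were called, with Cdh1 at 0.0647 and Krt5 at 0.0797.

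In ASC1 the difference ran the other way. Krt8 averaged 98.1 ± 110 CPM in control females (n = 8) and had no read in the 3 ovariectomized libraries, a level at least 41.2-fold lower at the floor of 2.38 CPM (edgeR adjusted p = 0.00604). Krt18 was at least 33.9-fold lower (adjusted p = 0.00555) and Krt14 at least 13.5-fold lower (adjusted p = 0.0379). Krt8 and Krt18 did not overlap between the groups (exact two-sided permutation p = 0.00606 each, the smallest that 3 against 8 libraries allow). Overlap was not examined over all genes. Krt14 overlapped (exact permutation p = 0.0727), and robust estimation in edgeR ended its call (adjusted p = 0.0605). The bounds rest on library L, without which they were 12.4-fold for Krt8, 10.3-fold for Krt18 and 4.07-fold for Krt14, and without control female library E that of Krt8 was 25.7-fold. Cdh1 (adjusted p = 0.109) and Krt5 (0.176) did not pass. The share of all genes called here was 34.8%, so 3 of 5 members is to be read against that background. Without ovariectomized library L, the deepest of the 3, none of the 5 was called (adjusted p = 0.0823 for Krt8). Without the 5 control female libraries against their label, Krt8, Krt18 and Krt14 were still called (adjusted p of 0.00623 to 0.0411), in a fit that called 3291 of 11851 genes for this comparison. Averaged over both populations no member was called (19.1% of all genes), and the difference between the populations in the ovariectomy contrast was itself past the threshold for Krt8, Krt18, Krt14 and Cdh1, as it was for 34.8% of genes.

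**Figure D3:**
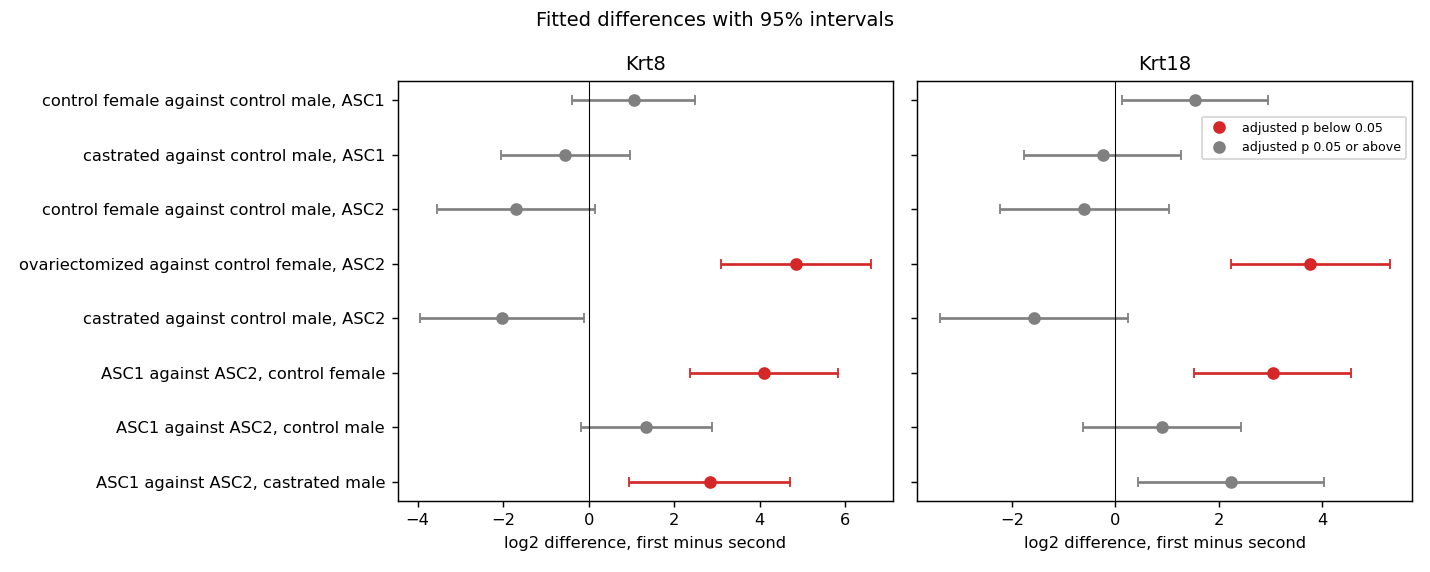
Fitted log2 differences of Krt8 and Krt18 with 95% confidence intervals for the comparisons in which both groups had reads, red where the adjusted p was below 0.05. In ASC2 the ovariectomized minus control female value is 4.84 for Krt8, and the intervals of the sex and castration comparisons reach or lie near 0.

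The second comparison sets control females against control males. No member was called in ASC1 (0.289% of all genes called), in ASC2 (6.49%) or over both (4.35%), by edgeR. In ASC1 Krt18 averaged 80.8 ± 77.6 CPM in females (n = 8) and 29.8 ± 29.4 CPM in males (n = 7), a log2 difference of 1.54 (95% interval 0.12 to 2.96, unadjusted p = 0.0338 and adjusted p = 0.55 by edgeR). Krt8 differed by 1.05 (-0.38 to 2.48) and Krt14 by 1.30 (-0.43 to 3.03). In ASC2 Krt8 was 1.69 lower in females (-3.54 to 0.16) and Krt18 0.59 lower (-2.24 to 1.05), with control male libraries A to D at 0. Krt14 in control male ASC2, 3.32 CPM, was at least 6.29-fold above the floor of the control females, with an adjusted p of 0.194. No member passed a test of the difference between the populations in the sex contrast, for which 0.128% of genes did. Without the libraries against their label, 3 or 4 control male and 3 or 2 control female libraries per population remained, and Krt18 was then called higher in females over both populations (edgeR adjusted p = 0.0289), while Krt8 was not (0.177). That fit called 195 of 11851 genes over both populations. The control male ASC2 libraries left in that fit had no read of either gene.

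The third comparison, castrated against control males, called no member in ASC1 (2.36% of all genes), ASC2 (6.95%) or both (5.26%), by edgeR. In ASC1 the luminal keratins differed by -0.55 for Krt8 (95% interval -2.06 to 0.97) and -0.25 for Krt18 (-1.76 to 1.27). Krt14 was 2.96 lower on the log2 scale (-5.41 to -0.51, adjusted p = 0.238), at 1.65 ± 3.71 CPM against 14.3 ± 15.9 CPM. In ASC2 Krt8 was 3.89 ± 5.18 CPM in castrated and 18.8 ± 25.0 CPM in control males, a log2 difference of -2.02 (-3.94 to -0.10, adjusted p = 0.202). All 8 libraries labelled castrated male ASC1 went against their sex label, so no value without them can be had for ASC1. In ASC2, leaving out control male libraries E to H removed every Krt8 and Krt18 read of the control group, after which castrated males were the higher group, without a call (edgeR adjusted p = 0.341 and 0.268).

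Between the sorted populations, Krt8 was higher in ASC1 in control females and in castrated males, and Krt18 in control females. In control females Krt8 was higher in ASC1 by 4.09 on the log2 scale (SE 0.863, adjusted p = 0.000933 by edgeR) and Krt18 by 3.05 (SE 0.758, adjusted p = 0.00603), and the groups of 8 did not overlap for either gene (exact two-sided permutation p = 0.000155 each, the smallest the design allows). The share of all genes without overlap was not determined, here or in the comparisons that follow. Krt14 was at least 60.7-fold higher in ASC1 (adjusted p = 0.000857), while Cdh1 (3.02, adjusted p = 0.0734) and Krt5 (2.88, 0.205) did not pass, against 6.11% of genes called. Without the libraries against their label, 3 ASC1 and 2 ASC2 libraries remained, the differences were 4.75 for Krt8 and 3.53 for Krt18, and neither was called (adjusted p = 0.25 and 0.324). That fit called 90 of 11851 genes here, against 762 of 12464 with all libraries. In castrated males Krt8 was higher in ASC1 by 2.83 (SE 0.94, adjusted p = 0.045, with 9.07% of genes called). All 8 castrated ASC1 libraries went against their sex label (Xist 51.7 to 118 CPM, Y-linked sums 0 to 4.7 CPM). None of the castrated ASC2 libraries did (Xist 0 to 7.95 CPM, Y-linked sums 55.6 to 99.6 CPM). These populations thus differed in the DPP4 gate and in sex-chromosome transcripts alike, and the part of each in the Krt8 values was not tested. The groups did not overlap, since the lowest ASC1 library had 20.3 CPM and the highest ASC2 library 12.7 CPM, but the call was lost when any of 12 of the 16 libraries was left out (adjusted p up to 0.0861). Krt18 at 2.24 did not pass (adjusted p = 0.108), although the exact two-sided permutation test gave p = 0.00218, and edgeR called it with a replicate block (adjusted p = 0.00228), in a fit of only these groups (0.00797) and with no count filter (0.00937). The block treats libraries of 1 plate row as pairs. In castrated males the deviations of same-row libraries from their group means correlated at only -0.169 to 0.031, so the block call is not taken as paired support. In control males no member was called (12.2% of genes), with Krt8 at 1.35 (95% interval -0.18 to 2.88). In ovariectomized females Krt8, Krt18, Krt14 and Cdh1 were lower in ASC1, by at least 79.4-fold, 63.2-fold, 29.1-fold and 4.84-fold (edgeR adjusted p of 0.00173 to 0.0368), in a comparison in which 35.4% of genes were called. Krt5, chosen for the test by the high group, was at least 13.8-fold lower (adjusted p = 0.043). Krt8 and Krt18 did not overlap (exact two-sided permutation p = 0.0303 and 0.0121), whereas Krt14, Krt5 and Cdh1 did (0.0909, 0.236 and 0.158). The lack of overlap rests on few reads, since ASC2 library L had 1 Krt8 read (1.64 CPM) and 3 Krt18 reads (4.91 CPM). For Krt8 that is under the ASC1 floor of 2.38 CPM. DESeq2 did not call Cdh1 (adjusted p = 0.148) or Krt5 (0.245), and a replicate block did not call Cdh1 (0.0649). Without ovariectomized ASC1 library L the bounds were 24-fold for Krt8, 19.1-fold for Krt18, 8.79-fold for Krt14, 4.16-fold for Krt5 and 1.46-fold for Cdh1, and only 2 members were called.

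Epcam and Csn3, which were too low for the fitted test, were compared by the exact permutation test alone. Epcam averaged 3.03 ± 4.79 CPM in control female ASC1 and 4.27 ± 7.27 CPM in ovariectomized female ASC2, and at most 1.66 CPM elsewhere. It was highest in ovariectomized female ASC2 P (17.1 CPM from 2 reads) and O (14.8 CPM, 6 reads) and in control female ASC1 E (11.7 CPM, 11 reads), all libraries with high Krt8. Other libraries with high Krt8 had no Epcam read, namely ovariectomized female ASC2 N (Krt8 318 CPM) and control female ASC1 D and F (112 and 97.7 CPM). Over the 58 libraries Krt8 and Epcam gave a Pearson r of 0.51 (Spearman rho 0.41). The 10 two-sided p values for Epcam ran from 0.128 to 0.843, and none of the 10 for Csn3 was below 0.0971. Csn3, the kappa-casein that stabilizes casein micelles, had its highest group mean in ovariectomized female ASC2 (4.42 ± 5.46 CPM, 13 reads) and was read in 6 of 8 control female ASC2 libraries at 0.98 to 4.73 CPM. No library had more than 7 Csn3 reads.

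Most other milk genes were also at or near 0. Of 9 further milk protein genes, 3 caseins (Csn1s1, Csn1s2a and Csn1s2b) had no read in any library. Wfdc18, a secreted whey-type protein of the mammary gland, had 81 reads in 21 libraries, and Glycam1 had 51 reads, 27 of them in ovariectomized female ASC1, where every member was at 0. Mfge8 and Xdh, which are milk fat globule components but are also made in many other cells, were high in all 58 libraries (459 to 1370 CPM and 88.0 to 475 CPM). The summed level of this list, 605 to 1590 CPM, therefore rests on Mfge8 and Xdh. Prlr, the prolactin receptor, had 89 reads in all, and 44 of them were in ovariectomized female ASC1 (edgeR log2 difference against control female ASC1 of 4.08, SE 0.865, adjusted p = 0.000198). Esr1, the estrogen receptor alpha gene, was also higher in ovariectomized than in control female ASC1 (edgeR log2 difference 3.91, SE 0.47, adjusted p = 1.44e-09), and Wnt4, a signal that acts in duct branching, was lower (adjusted p = 0.00528, with no read in the ovariectomized libraries). In ASC2 none of Prlr, Esr1 and Wnt4 was called in this comparison.

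Among 22 further luminal genes, 9 were tested, and Krt7 and Cldn4 were called in the same direction as Krt8 and Krt18 in 4 comparisons (both ovariectomy comparisons within a population, and ASC1 against ASC2 in control and in ovariectomized females). In ovariectomized against control female ASC2, Krt7, a keratin of simple and ductal epithelia, was higher by 4.65 on the log2 scale (SE 0.813, edgeR adjusted p = 0.000336), and Cldn4, a tight junction protein, by 4.8 (SE 1.02, adjusted p = 0.00342). Krt19 was lower by 1.59 (SE 0.456, adjusted p = 0.0459), so 2 rose and 1 fell, with a list median of 0.35 against 0.002 for all genes. In control females Krt7 and Cldn4 were higher in ASC1 than in ASC2 (4.28 and 3.96), and Krt19 and Aldh1a3 were lower (-2.20 and -1.38). Elf5, a transcription factor of luminal progenitors, had 2 reads in all, and Foxa1 had 1. Of 10 further basal genes 7 were tested. In ovariectomized against control female ASC2 Krt17 rose by 8.02 (SE 1.35, adjusted p = 0.000182), Acta2 by 1.62 (SE 0.341, adjusted p = 0.00295) and Cnn1 by 2.08 (SE 0.542, adjusted p = 0.0238), with a list median of 1.15. Krt17 had 119, 85, 132 and 52 reads in M to P and none in I to L, the division seen for Krt14 and Krt5. The sum of these further basal genes did not divide that way. It was 1620, 1740, 1940 and 1920 CPM in I to L and 967, 2320, 2210 and 2560 CPM in M to P, so M lay below each of I to L. Trp63, the transcription factor that defines basal cells, had 15 reads in 11 libraries and no more than 3 in any one.

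Over the 58 libraries, the 10 other genes whose log2(CPM + 1) was most like that of the summed members were Krt7 (Pearson r = 0.917), Cldn4 (0.803), Sfn (0.798), Krt17 (0.751), Clu (0.706), Cnn1 (0.697), Sdc1 (0.688), Pkp1 (0.679), Acta2 (0.679) and Itga3 (0.679). Of the lists examined, Krt7 and Cldn4 belong to the luminal panel, Krt17, Cnn1 and Acta2 to the basal panel and Sfn to the keratinocyte panel, and these values describe shared libraries only.

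Markers of 2 other keratin-bearing cell types were read beside the members. Of 10 keratinocyte genes, Krt1 and Lor, which mark differentiating epidermis, had no read in any library, and Dsg1a had none either. Krt10 was low in every group (medians of 3.56 to 7.17 CPM). The summed list ranged from 4.58 to 289 CPM, was highest in control male ASC2 (135 to 289 CPM) through Sbsn and Krtdap, and gave r = -0.01 with summed Krt8 and Krt18. Within ovariectomized female ASC2, however, the sum was 64.7, 82.1, 49.8 and 44.2 CPM in I to L and 142, 153, 170 and 188 CPM in M to P, so it was higher in the libraries with high keratins. Krtdap and Sbsn were higher in ASC2 than in ASC1 in all 4 conditions by edgeR. Sfn, a cell cycle regulator of stratified epithelia, was called higher by 4.43 in ovariectomized against control female ASC2 (SE 0.879, edgeR adjusted p = 0.00174).

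All 6 mesothelial genes (Msln, Upk3b, Upk1b, Lrrn4, Wt1 and Gpm6a) had reads. Their summed level was low in the libraries with the most keratin, but not in every library with luminal keratins. In ovariectomized female ASC2 their summed level was 44.9, 84.0, 56.2 and 41.0 CPM in I to L and 10.3, 0, 2.46 and 8.54 CPM in M to P, and Upk3b had 10, 26, 26 and 4 reads in I to L and none in M to P. In castrated male ASC1 the sum was 127, 153, 157, 115, 179 and 91.4 CPM in K to P, where Krt14 had 2 reads in all, and 0 and 2.54 CPM in I and J. In control male ASC1 it was 40.6, 52.9 and 22.8 CPM in B to D, the low keratin libraries, and at most 0.868 CPM in E to H. In control female ASC1 B, C, D and G held both sets, with mesothelial sums of 62.0 to 106 CPM and Krt14 at 16.8 to 38.4 CPM, while E and F had mesothelial sums of 3.20 and 0 CPM. Against control males, the libraries labelled castrated had higher Msln in ASC1 (log2 difference 4.32, SE 0.935, edgeR adjusted p = 0.00364), with Upk3b and Lrrn4 also called, 3 of 5 tested. All 8 of these castrated ASC1 libraries went against their sex label, so no value without them can be had. In ASC2 Upk3b, Upk1b and Wt1 were called, again 3 of 5. In the ovariectomized against control female comparison of ASC2 none of 5 was called (median 1.44). The part of mesothelial or epidermal cells in the keratin values was not tested.

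**Figure D4:**
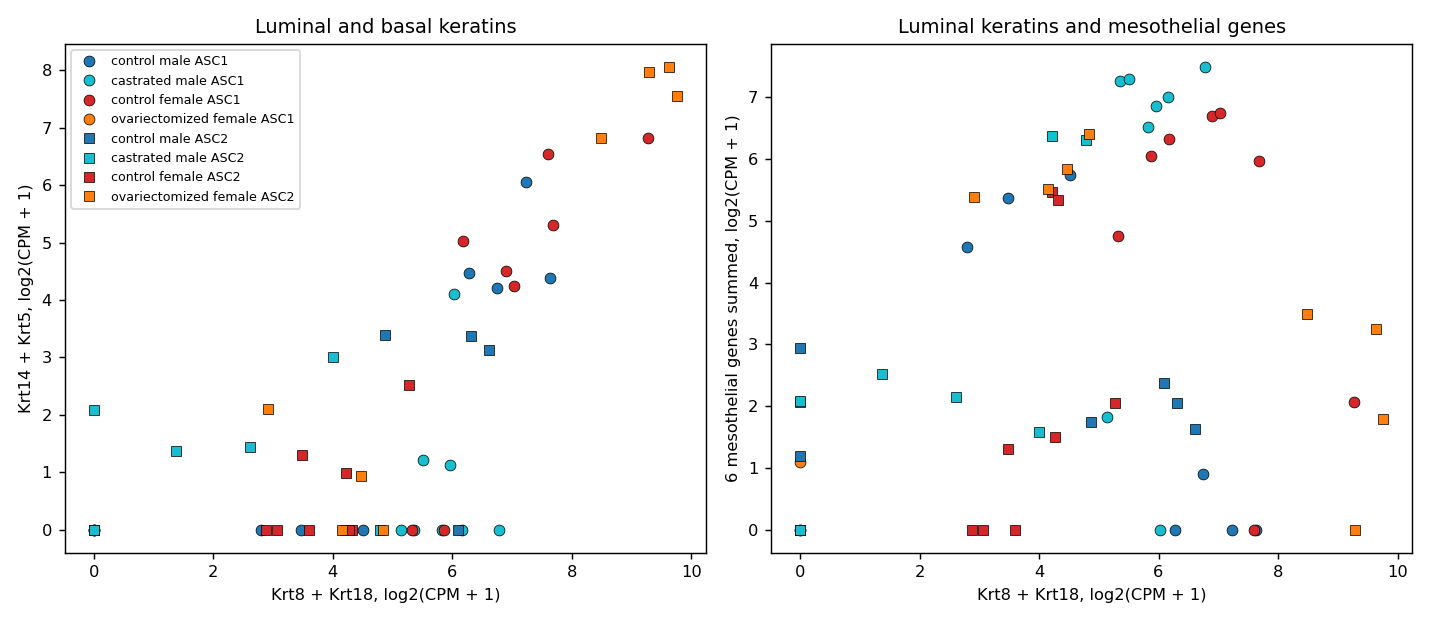
Summed Krt8 and Krt18 against summed Krt14 and Krt5 (left) and against 6 summed mesothelial genes (right), log2(CPM + 1), 1 point per library, circles for ASC1 and squares for ASC2. Luminal and basal sums give Pearson r = 0.71, luminal and mesothelial sums r = 0.25, and the libraries with the highest keratin sums lie low on the mesothelial axis.

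The ratio of Krt18 to Krt8 reads was taken without a test. In the 30 libraries with at least 10 Krt8 reads its median was 0.781, with a range from 0.0769 to 1.53. Group medians were 0.543 in control male ASC1 (5 libraries), 0.829 in control female ASC1 (7), 0.772 in castrated male ASC1 (8) and 0.882 in ovariectomized female ASC2 (6). The lowest ratio was in castrated male ASC1 P, with 13 Krt8 reads and 1 Krt18 read.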

How the data were processed

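RNA from sorted iWAT ASC was made into Smart-seq3 libraries. The authors quantified reads with Salmon 1.9.0, with and without molecular identifiers together, and deposited each estimated count per gene without normalization. The submitters' processing notes also name STAR 2.7.10a, FastQC 0.11.9, MultiQC 1.12 and build GRCm39, and libraries under 8500 detected genes had been removed. The deposited counts were rounded to whole numbers here, which affected the 15% of nonzero values that were not whole. Strand use in the counting is not given in the sources used here.

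Identifiers were matched to symbols by gene tables of an older annotation, which named 12371 of 12464 tested genes. A gene was tested when more than 3 libraries held 5 or more of its reads, by edgeR 4.0.16 in R 4.3.3 (TMM, quasi-likelihood F test, 8 group coefficients, Benjamini-Hochberg over all 12464 genes, threshold 0.05). All 58 libraries entered the fit, since the groups share 1 estimate of spread (biological coefficient of variation 35.6%). Standard errors were not given where a group had no read, and bounds then use a floor of 3 counts over that group. Floors cover counting error only. Single members were also compared by exact two-sided permutation of mean log2(CPM + 1) in Python with scipy 1.17.1. Overlap of ranges was examined for members only, so a lack of overlap has no share over all genes to be read against. The model was tested on simulated data. Named are the 10 members, up to 4 genes per list with the most reads, list genes that passed the threshold in a comparison described, and the 10 tested genes most correlated with the summed members. Elf5, Foxa1, Trp63, Krt1, Lor, Dsg1a and the 3 further caseins were named after their values were seen. DESeq2 1.42.0, other scalings and filters, a replicate block and fits without single libraries or without those against their sex label were the alternatives. Members and lists were chosen with earlier results of these data known. The study's methods describe groups of 8 mice as biological replicates, and the labels do not tie a library to a mouse. Fold bounds without single libraries were added after the values were seen. No pair of libraries in a group differed by less than sampling noise (lowest chi-square per gene 1.53). Motifs were searched in RefSeq windows of GRCm38.p6, which is not the build of the counts. The result of 1 gene list is given only in part, and the rest is not reported here.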

Additional observations from a re-analysis of the deposited data

Results flagged for a closer look

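For 8 values, 1 library lay far from the other libraries of their group by Dixon's criterion, out of 32 gene and group combinations examined (those with at least 5 reads in the highest library), where chance gives about 1 in 20. Control female ASC1 library E stood out for Krt8 (356 CPM) and Krt18 (261 CPM). Library E also stood out for Cdh1 in control male ASC1 (5.21 CPM) and ASC2 (4.22 CPM) and for Csn3 in control male ASC2 (4.92 CPM, 7 reads). Krt5 in control male ASC1 F was 22.5 CPM. Krt14 in castrated male ASC1 I was 10.7 CPM and in castrated male ASC2 M 6.99 CPM.

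The contrast of ovariectomized with control females differed between ASC1 and ASC2 by an interaction term in the edgeR fit, chosen after seeing the data, for all 5 tested members, of which Krt5 passed the count filter only through ovariectomized ASC2. The adjusted p was 1.67e-05 for Krt8, 4.2e-05 for Krt18, 0.00283 for Cdh1, 6.62e-05 for Krt14 and 0.0086 for Krt5, with no read in the 3 ovariectomized ASC1 libraries and a higher level in ovariectomized than control ASC2. The same term was called for 34.8% of genes.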

How the results depend on the processing

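Counts of members called under edgeR, by comparison, moved by over 1.5 times as follows, and no called member changed sign under the alternatives run. The cause of each change was not tested, except that fits without libraries against their sex label or without 1 library hold fewer samples. Without libraries against the sex label the count went from 0 to 1 for control female against control male over both populations, from 5 to 0 for ovariectomized against control female ASC2, from 3 to 0 for ASC1 against ASC2 in control females and from 5 to 3 in ovariectomized females. Over all 11851 genes of that fit, 195, 2, 90 and 4021 were called in these comparisons, in this order. With no count filter it went from 0 to 1 for castrated against control male (ASC1, ASC2 and both), for control female against control male ASC2, for ASC1 against ASC2 in control males and for the difference of the sex contrast, and from 1 to 2 for ASC1 against ASC2 in castrated males. DESeq2 gave 3 in place of 5 for ovariectomized against control female ASC2 and for ASC1 against ASC2 in ovariectomized females, and a fit of only the groups compared gave 2 for both and 2 in place of 1 for castrated males, where robust estimation gave 0. Smaller changes were 5 to 4 for the difference of the ovariectomy contrast (without libraries against the sex label and with DESeq2), 3 to 2 for ovariectomized against control female ASC1 and 5 to 4 for ASC1 against ASC2 in ovariectomized females (robust estimation). Leaving out 1 library gave 0 to 3 for ovariectomized against control female ASC1, 3 to 5 in ASC2, 4 to 5 for the difference of the ovariectomy contrast between populations, 2 to 5 for ASC1 against ASC2 in ovariectomized females, 0 to 1 in castrated males and 3 to 4 in control females. The low values for castrated males came from leaving out any of ASC1 K to P or ASC2 K to P. A paired fit with the plate row as replicate block, made although same-row libraries did not all correlate (0 to 5 pairs per comparison above 0.1), called 1 member in place of 0 for ASC1 against ASC2 in control males (Krt8, adjusted p = 0.0343) and 2 in place of 1 in castrated males (Krt18 added), and 4 in place of 5 in ovariectomized females (Cdh1 lost, adjusted p = 0.0649). In castrated males and in ovariectomized females no same-row pair was above 0.1. Exact permutation tests gave p below 0.05 in 15 of 71 cases, 14 on raw reads and 16 with a pseudocount of 0.1 CPM.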
